A study of Mus musculus with 10 samples.

Results

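The subject is 8 transcription factor genes that pattern the embryonic cortex: Pax6, Emx1, Emx2, Lhx2, Gli3, Otx2, Tfap2c and Nfia. They were taken by symbol, as probe sets annotated with exactly 1 of these names, and all 8 were found among the 22180 genes measured. Each had 1 such probe set, so no choice between probe sets was needed. The RNA came from cortices of CD1 mouse embryos of embryonic days 12 to 13 and was hybridised to Affymetrix Mouse Gene 2.0 ST arrays. There were 3 arrays of RNA precipitated with an antibody to 4E-T (4E-T 1, 2 and 3), 3 of RNA precipitated with control IgG (IgG 2, 3 and 4) and 4 of total input RNA (input 1 to 4). All groups share the strain, the age and the tissue, and no genotype or treatment differs between them. The labels do not say how many embryos went into an array, so the p-values measure the spread between arrays, which may be partly technical.

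The developing telencephalon acquires its map from signalling centres at its edges, which set graded levels of transcription factors in the precursors between them. Lhx2 holds the precursors to a cortical fate and keeps them from becoming cortical hem, while Pax6 and Emx2 form opposed gradients, Pax6 high rostrally and laterally and Emx2 high caudally and medially. Gli3, in its repressor form, restrains Sonic hedgehog signalling dorsally. The protein 4E-T is a partner of eIF4E, the factor that holds the cap of messenger RNAs, and is known to repress their translation and to gather in P-bodies, so the comparison of the precipitates with each other and with input asks which of these messenger RNAs were over- or under-represented with 4E-T.

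Values are on the log2 scale, as the authors' robust multi-array average (RMA) gives them, and 1 unit is a doubling of intensity. RMA includes a normalization between arrays, so the total RNA recovered was not compared. In bulk RNA, fewer cells that express a gene and less of its RNA per cell cannot be told apart. The deposited arrays did not all share 1 distribution: 4E-T 1 and input 1 lay on a lower scale, with medians over all probe sets of 3.52 and 3.54, against 4.33 to 4.54 on the other 8 arrays. No IgG array belongs to this lower set. Each difference below is therefore given from a limma fit with group alone and from a fit that also carries a term for the lower set (the set term), both over all 10 arrays and adjusted by Benjamini-Hochberg over all genes. "Called" means an adjusted p under 0.05. Each member's difference is to be read against that of the median gene, which with group alone stood at -0.19 (4E-T against IgG), -0.02 (4E-T against input) and 0.20 (IgG against input). The set term put it at 0.03, 0.04 and 0.03. All 13 genes on a list of cortical precursor and neuron markers, among them Sox2, Neurog2, Tbr1 and Tubb3, lay on every input array above the 95th percentile of the 1105 olfactory receptor genes, which served as a gauge of background (3.5 to 4.81 over the 10 arrays). So did the members in all groups other than Otx2, which is described below.

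The 8 genes lie on 6 chromosomes in the GRCm38.p6 assembly of the reference gene table. The part of its gene that each probe set covers was not examined. Pax6 lies on chromosome 2 from 105668896 to 105698410, Lhx2 on chromosome 2 from 38339271 to 38369737 and Tfap2c on chromosome 2 from 172545678 to 172558622. Emx1 lies on chromosome 6 from 85187931 to 85204463, and its paralogue Emx2 on chromosome 19 from 59458690 to 59465357. Otx2 lies on chromosome 14 from 48656781 to 48667644. Gli3 on chromosome 13, from 15463723 to 15730026, and Nfia on chromosome 4, from 97578066 to 98118876, are the longest of the 8, at 266304 and 540811 bases, against 6668 for Emx2, the shortest.

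With the set term, Emx2 and Otx2 were higher with 4E-T than with IgG and than in input. Otx2 lay above the background gauge on 0 of 3 IgG arrays and on 2 of 4 inputs. In the same fit Emx1 was lower with IgG than in input, and Nfia was higher with IgG than in input. For Pax6, Lhx2 and Tfap2c no difference was called in any of the 3 comparisons in either fit. With group alone, 1 of the 8 members (Otx2) was called higher with 4E-T than with IgG and 0 were called lower, where 0.708% of all genes were called higher and 0.64% lower. The set term gave 3 higher (Otx2, Emx2 and Emx1) and 1 lower (Nfia), where 7.57% of all genes were higher and 2.92% lower. For 4E-T over input, 1 was higher (Emx2) and 0 lower with group alone, beside 2.56% and 3.58% of all genes, and 3 were higher (Emx2, Otx2 and Gli3) and 0 lower with the set term, beside 10.4% and 8.86%. For IgG over input, 1 was higher (Nfia) and 0 lower with group alone, beside 1.45% and 3.99%, and 1 was higher (Nfia) and 1 lower (Emx1) with the set term, beside 6.14% and 10.5%. The median difference over the 8 members was 0.52, 0.33 and -0.14 in these 3 comparisons in the fit of group alone. The set term gave 0.60, 0.35 and -0.19. The comparisons share arrays, so a member's 3 differences are not independent of each other.

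**Figure D1:**
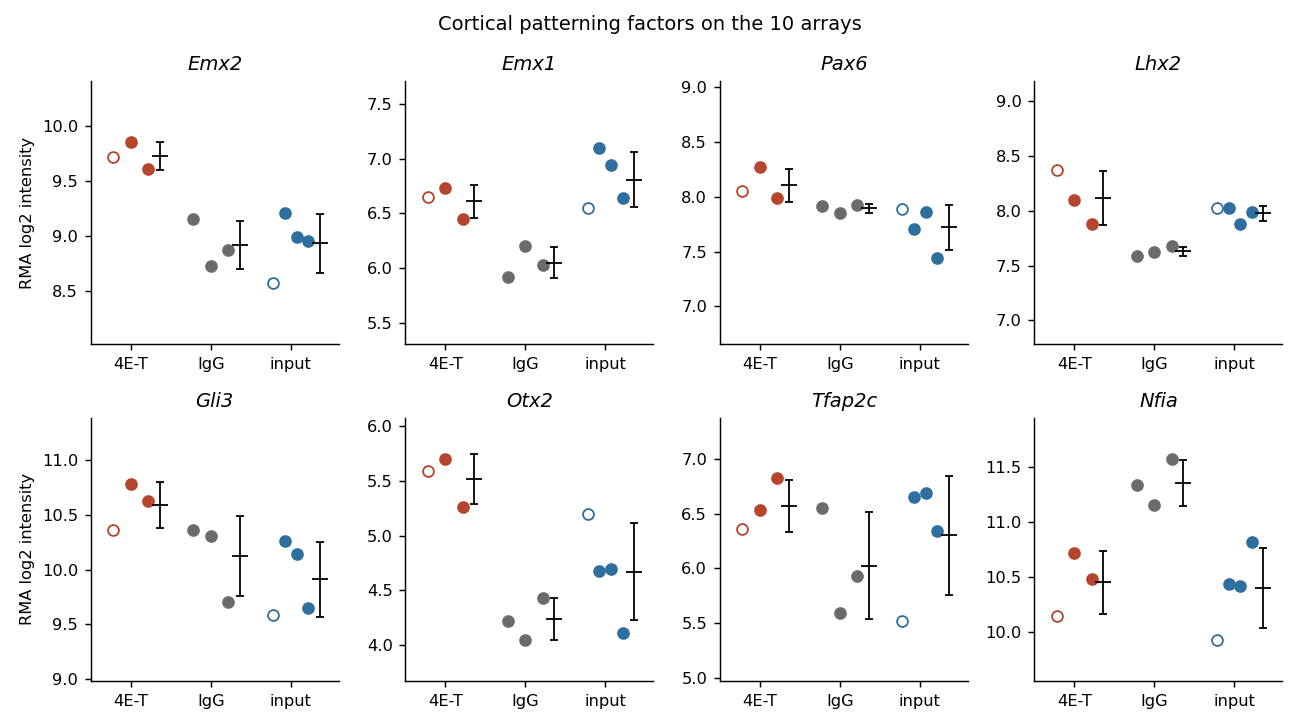
RMA log2 intensity (vertical axis, a span of the same size in each panel) of the 8 factors on the 4E-T, IgG and input arrays. Points are single arrays, open points are the lower set (4E-T 1 and input 1), and the black mark beside each group is its mean ± SD (n = 3, 3 and 4). The 3 4E-T points of Emx2 lie from 9.61 to 9.86, above all 7 others, and the 3 IgG points of Nfia lie from 11.15 to 11.57, above all 7 others.

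Emx2 encodes a homeodomain protein that specifies caudal and medial cortex, including the hippocampal primordium. It stood at 9.72, 9.86 and 9.61 on the 4E-T arrays, against 9.16, 8.73 and 8.87 on the IgG arrays and 8.57, 9.21, 8.99 and 8.95 on the input arrays. All 3 4E-T values lay above every IgG and every input value, while IgG and input overlapped. Emx2 was higher in 4E-T than in input by 0.80 ± 0.22 with group alone (SE, 1.74-fold, adjusted p = 0.0479) and by 0.82 ± 0.16 with the set term (adjusted p = 0.00318). Against IgG it differed by 0.81 ± 0.23 with group alone, which was not called (1.76-fold, adjusted p = 0.120), and by 0.90 ± 0.18 with the set term, which was (1.86-fold, adjusted p = 0.00812). IgG over input gave -0.01 ± 0.22 (adjusted p = 0.976). With group alone the call against input was lost without any 1 of the 10 arrays (adjusted p from 0.0558 to 0.204, difference from 0.68 to 0.89). With the set term it held without any 1 array (0.00228 to 0.0257), and the call against IgG was lost without 4E-T 2 (0.0538).

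Emx1, the paralogue of Emx2, marks the dorsal telencephalon and is expressed in cortical precursors and their excitatory progeny. Its levels were 6.65, 6.74 and 6.45 with 4E-T, against 5.92, 6.20 and 6.03 with IgG and 6.55, 7.09, 6.94 and 6.64 in input. The IgG values lay below all others, and 4E-T and input overlapped. Emx1 differed between 4E-T and input by -0.20 ± 0.21 (adjusted p = 0.924), and by -0.18 ± 0.16 with the set term (0.530). In IgG it differed from input by -0.76 ± 0.21 with group alone (adjusted p = 0.0577) and was called lower by -0.79 ± 0.16 with the set term (adjusted p = 0.00556), a call that held without any 1 array (0.00608 to 0.0250). Leaving out input 1 or 4E-T 1 brought the group-alone difference under the threshold as well (lowest adjusted p = 0.0251). Over IgG, 4E-T was higher by 0.61 ± 0.18 with the set term (1.53-fold, adjusted p = 0.0488), against 0.56 ± 0.23 with group alone (0.307). Removing any array but input 4 ended the set-term call (adjusted p up to 0.200), and so did the fit of the 8 arrays outside the lower set (0.102).

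Emx1 and Emx2 were also compared on the same array, where a shift common to all genes cancels, though one that varies with brightness need not. The log2 value of Emx2 minus that of Emx1 was 3.07, 3.12 and 3.16 with 4E-T, against 2.02, 2.12, 2.05 and 2.31 in input. The groups did not overlap. The means were 3.12 ± 0.05 (SD, n = 3) with 4E-T and 2.12 ± 0.13 (SD, n = 4) in input, a difference of 0.99, or 1.99-fold. The two-sided exact permutation test gave p = 0.0571, the smallest that 3 against 4 arrays allow, and 0.200 after adjustment over the 8 tests of such pairs. With IgG the values were 3.24, 2.52 and 2.84 and overlapped those with 4E-T (difference 0.25, exact permutation p = 0.400, adjusted 0.533, where 3 against 3 cannot go below 0.10). The ratio of the paralogues thus separated 4E-T from input by more than the spread of the arrays, though the adjusted p did not pass, and did not separate 4E-T from IgG. All 3 IgG values also lay above all 4 inputs, so a ratio above that of input was shared by both precipitates. IgG against input was not tested for this pair.

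Otx2 encodes a homeodomain protein required for forebrain and midbrain identity, and later marks choroid plexus. It stood at 5.59, 5.70 and 5.26 with 4E-T, against 4.22, 4.05 and 4.43 with IgG and 5.20, 4.68, 4.69 and 4.11 in input. All 4E-T values were above all IgG and all input values, though the lowest of them, 5.26, lay close to input 1 at 5.20. Otx2 was above the olfactory receptor gauge on 3 of 3 4E-T arrays, on 0 of 3 IgG arrays and on 2 of 4 input arrays, so its level with IgG is not distinguished from background. It was called higher with 4E-T than with IgG, and taking the gauge as the IgG level (mean 4.72, against 5.51 with 4E-T) it was at least 1.73-fold higher. The fitted differences, which take the IgG readings at face value, were 1.28 ± 0.28 with group alone (adjusted p = 0.0425) and 1.14 ± 0.22 with the set term (0.00751). Over input the difference was 0.84 ± 0.26 with group alone (1.79-fold, adjusted p = 0.0792) and 0.81 ± 0.20 with the set term, which was called (1.75-fold, 0.0118). Input 3 (4.69) and input 4 (4.11) lay under their gauges of 4.72 and 4.51, so these folds rest partly on readings at background. IgG and input differed by -0.43 ± 0.26 (adjusted p = 0.418).

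With group alone the Otx2 call over IgG ended when any 1 array was left out, input 1 and input 4 excepted (adjusted p up to 0.180, difference from 1.18 to 1.41). With the set term the calls over IgG and over input were lost without 4E-T 2 only (adjusted p = 0.0618 and 0.0924, at differences of 0.91 and 0.61). Markers of regions where Otx2 is known to be expressed were measured beside it. Of 10 genes of cortical hem and choroid plexus, 0 were called in 4E-T over IgG in either fit, and 1 was above the olfactory gauge on all inputs (Ttr, the transthyretin gene of choroid plexus). Their mean level per array was 3.69 to 4.19 with 4E-T, 4.01 to 4.19 with IgG and 3.61 to 4.09 in input. Of 7 genes of diencephalon and midbrain, among them En1, En2 and Tal2, 0 were called in 4E-T over IgG, and 2 were above the gauge on all inputs. Their mean per array was 3.95 to 4.71 with 4E-T, 4.40 to 4.60 with IgG and 3.81 to 4.65 in input. Pigment epithelium gave 0 calls of 6 in 4E-T over IgG, with 1 gene above the gauge on all inputs. Of all genes, 0.708% were higher and 0.64% lower in that comparison with group alone, and 7.57% and 2.92% with the set term. Against input, Tcf7l2, a diencephalic gene, was higher by 0.83 ± 0.20 (adjusted p = 0.0301) and Dct, a pigment gene, was lower with group alone. The set term added Rspo2 of the hem and Mitf of pigment epithelium as higher, neither of them above the gauge on all inputs. Tcf7l2 and Dct were above it on all inputs, unlike most genes of their lists. Tcf7l2 was also higher with IgG than in input, by 0.53 with group alone, which was not called (adjusted p = 0.179), and by 0.49 with the set term, which was (0.0442). The part of such cells in the Otx2 differences was not tested.

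Otx1, a relative of Otx2 that is expressed in cortical precursors, served as its partner on the same array. Otx2 minus Otx1 was -2.58, -2.47 and -2.74 with 4E-T, against -3.64, -4.01 and -3.54 with IgG. The groups did not overlap, but Otx2 is at background on the IgG arrays, so the difference of 1.14 is not an exact value (two-sided exact permutation p = 0.10, the smallest possible, adjusted 0.200). In input the values were -2.22, -3.27, -3.08 and -3.47, and input 1 lay above the 4E-T arrays (difference of 4E-T from input 0.41, exact permutation p = 0.286, adjusted 0.457). Among the 8 arrays outside the lower set that difference was 0.67. The shift of the lower set varied with brightness, so it need not cancel between the dim Otx2 and the brighter Otx1. Otx1 itself was not called in any comparison in either fit.

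Pax6 encodes a paired-box and homeodomain protein of radial precursors that favours rostral and lateral cortex and neurogenesis. Its levels were 8.06, 8.27 and 7.99 with 4E-T, against 7.92, 7.85 and 7.92 with IgG and 7.89, 7.70, 7.86 and 7.44 in input. The 4E-T values were the highest 3, but the lowest of them, 7.99, lay close to IgG 4 at 7.92 and input 1 at 7.89. The difference was 0.21 ± 0.21 over IgG (adjusted p = 0.685) and 0.38 ± 0.20 over input (0.400), and with the set term 0.18 ± 0.16 (0.577) and 0.37 ± 0.14 (0.0988). IgG over input gave 0.17 ± 0.20 (adjusted p = 0.666), and -0.14 when arrays were centred on their medians.

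Lhx2 encodes a LIM-homeodomain protein. It stood at 8.38, 8.10 and 7.88 with 4E-T, against 7.59, 7.62 and 7.67 with IgG and 8.02, 8.02, 7.88 and 7.98 in input. IgG lay below both other groups, which overlapped. The difference of 4E-T over IgG was 0.49 ± 0.21 (1.40-fold, adjusted p = 0.343) and 0.42 ± 0.14 with the set term (0.0934). IgG differed from input by -0.35 ± 0.20 (adjusted p = 0.392) and by -0.29 ± 0.13 with the set term (0.169), and 4E-T from input by 0.14 ± 0.20 (adjusted p = 1.00). None of these was called.

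Gli3 encodes a zinc finger protein that transduces and, as a repressor, limits Sonic hedgehog signals. It stood at 10.36, 10.78 and 10.62 with 4E-T, against 10.36, 10.30 and 9.71 with IgG and 9.59, 10.26, 10.15 and 9.65 in input. All 4E-T values exceeded all inputs, while 4E-T 1 and IgG 2 were equal to the decimals shown. Over input the difference was 0.68 ± 0.25 with group alone (1.60-fold, adjusted p = 0.161) and 0.71 ± 0.19 with the set term, which was called (1.64-fold, 0.0215). That call was lost without any 1 of 4E-T 1, 2 or 3 or input 1 or 4 (adjusted p up to 0.0980), and among the 8 arrays outside the lower set (0.0892). Over IgG it was 0.47 ± 0.27 (adjusted p = 0.518) and 0.59 ± 0.22 with the set term (0.111).

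Gli2, a related transducer of the same pathway that acts mainly as an activator, was set beside it. Gli3 minus Gli2 averaged 3.00 ± 0.14 with 4E-T (SD, n = 3), against 2.91 ± 0.40 with IgG (n = 3) and 2.93 ± 0.20 in input (n = 4). The groups overlapped, and the exact permutation p was 0.80 over IgG and 0.686 over input (adjusted 0.80 and 0.784). Gli2 alone was called higher with the set term, by 0.57 over IgG (adjusted p = 0.0337) and by 0.65 over input (0.00484).

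Labels give the same numbers to precipitates and inputs, and 4E-T and input arrays met the criterion for pairs set out with the processing. Arrays of unequal number outside the lower set met it too, so it did not establish the pairing. With the number as a block, 3 members were called higher in 4E-T than in input and 0 lower, where 10.9% of all genes were higher and 9.46% lower. These were Emx2 (0.80 ± 0.14, adjusted p = 0.00349), Gli3 (0.58 ± 0.13, 0.0101) and Otx2 (0.76 ± 0.20, 0.0218). Gli3 and Otx2 were not called with group alone, but the set term called the same 3 (adjusted p = 0.00318 for Emx2, 0.0215 for Gli3, 0.0118 for Otx2). Block 1 is the lower set, so the block and the set term are not independent of each other. Pair by pair, 4E-T minus input was 1.15, 0.64 and 0.62 for Emx2 in pairs 1, 2 and 3, 0.78, 0.52 and 0.48 for Gli3, and 0.39, 1.02 and 0.56 for Otx2. All 3 pairs of each gene were positive, and pair 1 is the lower set, so that its value is the difference within that set.

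**Figure D2:**
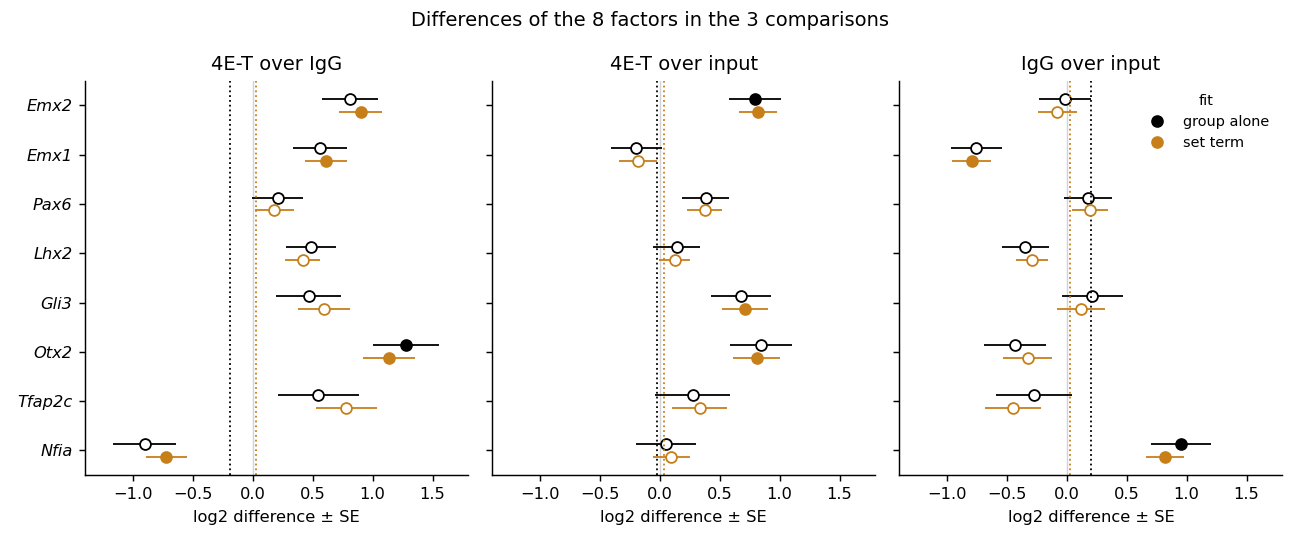
Log2 difference ± SE (horizontal axis) of the 8 factors (vertical axis) in the panels 4E-T over IgG, then 4E-T over input, then IgG over input. Black is the fit with group alone and orange that with the set term, filled points have an adjusted p under 0.05, and dotted lines mark the median of all genes in each fit. Otx2 over IgG is called in both fits, at readings of 1.28 and 1.14 against an IgG level at background, and Nfia is the factor left of 0 in 4E-T over IgG (-0.90 and -0.72) and right of all others in IgG over input (0.95 and 0.82).

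Tfap2c, which encodes AP-2 gamma, a factor of basal progenitors in the developing cortex, had the widest spread of the members within the IgG and input groups. It stood at 6.36, 6.53 and 6.83 with 4E-T, against 6.56, 5.59 and 5.93 with IgG and 5.52, 6.65, 6.69 and 6.34 in input. All groups overlapped, and the SD was 0.49 in IgG and 0.54 in input. The difference over IgG was 0.55 ± 0.34 (adjusted p = 0.539), and 0.78 ± 0.26 with the set term (0.0756). It was called with the set term without IgG 2 (adjusted p = 0.0137, at 1.05). Over input it was 0.27 ± 0.31 (adjusted p = 0.954).

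Nfia encodes a nuclear factor I protein that promotes the change of precursors from neurogenesis to gliogenesis, and it was the member that ran the other way. It stood at 10.15, 10.72 and 10.48 with 4E-T, against 11.34, 11.15 and 11.57 with IgG and 9.93, 10.44, 10.41 and 10.82 in input. The IgG values lay above all others, and 4E-T and input overlapped. IgG was higher than input by 0.95 ± 0.25 with group alone (1.94-fold, adjusted p = 0.0417) and by 0.82 ± 0.16 with the set term (1.76-fold, 0.00431). With 4E-T it differed from IgG by -0.90 ± 0.26 with group alone (adjusted p = 0.131) and was called lower, by -0.72 ± 0.17, with the set term (0.0219). From input it differed with 4E-T by 0.05 ± 0.25 (adjusted p = 1.00).

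With group alone the call of Nfia in IgG over input was lost without any 1 array other than 4E-T 1 or input 4 (adjusted p up to 0.181), and with the set term it held without any 1 array (0.00352 to 0.0202). The set-term call of 4E-T against IgG was lost without 4E-T 2, 4E-T 3 or IgG 4 (adjusted p up to 0.139). With group alone and arrays centred on their medians, 4E-T against IgG gave -0.46 (adjusted p = 0.154). Nfib, the relative that acts with Nfia in cortical development, was called in none of these comparisons. Nfia minus Nfib on the same array was -0.77, -0.87 and -0.88 with 4E-T, against -0.18, -0.18 and -0.26 with IgG and -0.56, -0.60, -0.53 and -0.62 in input. The 3 groups did not overlap, with 4E-T lowest, input between and IgG highest, and the SD within a group was at most 0.06. The difference of 4E-T was -0.63 from IgG (two-sided exact permutation p = 0.10, the smallest possible) and -0.26 from input (0.0571, the smallest possible), each 0.200 after adjustment.

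**Figure D3:**
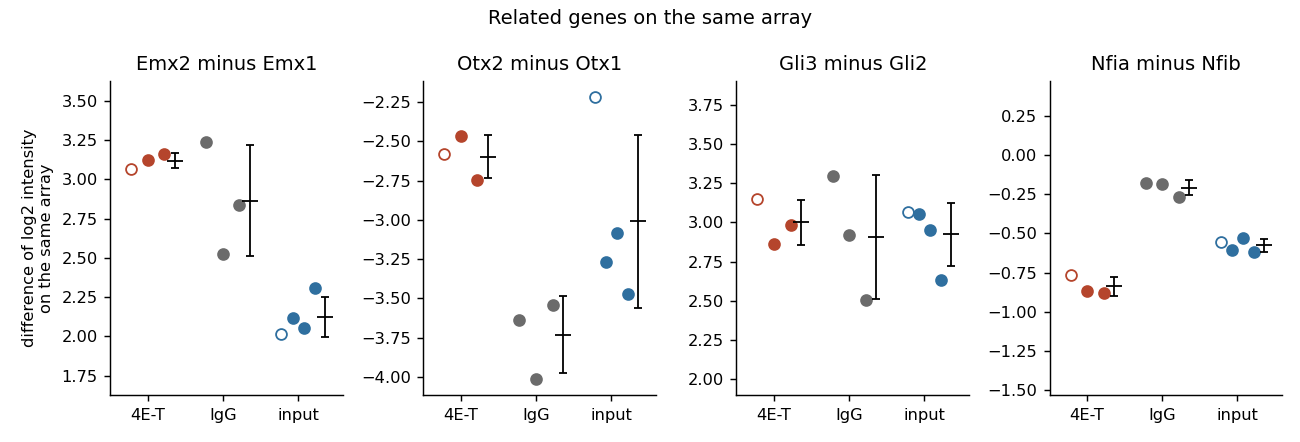
Difference of log2 intensity between related genes on the same array (vertical axis) in the 4E-T, IgG and input groups, with arrays as points, the lower set open, and mean ± SD beside each group (n = 3, 3 and 4). Emx2 minus Emx1 lies from 3.07 to 3.16 with 4E-T, above all 4 inputs, and its IgG points also lie above all 4 inputs. Nfia minus Nfib separates all 3 groups, and Gli3 minus Gli2 overlaps throughout.

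The lower set did not shift the members alike. Input 1 differed from the mean of the other inputs by 0.70 for Otx2, 0.22 for Pax6 and 0.06 for Lhx2, but by -0.34 for Emx1, -0.43 for Gli3, -0.48 for Emx2, -0.63 for Nfia and -1.04 for Tfap2c. The median of that difference over all genes of like brightness was -0.77 for genes from 4 to 6 on the log2 scale, -0.44 from 6 to 8, -0.44 from 8 to 10 and -0.50 from 10 to 15, where Gli3 and Nfia lie. On 4E-T 1 the offsets from the mean of 4E-T 2 and 3 were 0.39 for Lhx2, 0.11 for Otx2, 0.06 for Emx1, -0.01 for Emx2, -0.07 for Pax6, -0.32 for Tfap2c, -0.34 for Gli3 and -0.45 for Nfia. The medians over all genes there were -0.74, -0.51, -0.38 and -0.35 in the same ranges. On input 1, Otx2, Pax6 and Lhx2 thus lay well above genes of like brightness and Emx1 and Gli3 slightly above. Emx2, Nfia and Tfap2c lay below them there. On 4E-T 1, Otx2, Lhx2, Emx1, Pax6, Emx2 and Tfap2c lay above genes of like brightness, Gli3 close to them and Nfia below. Whether these offsets reflect the RNA or the normalization was not tested.

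Other factors that pattern the telencephalon were counted from a list, of which 17 genes were analysed here. In 4E-T over IgG, 0 of the 17 were called with group alone, where 0.708% of all genes were higher and 0.64% lower. The set term gave 3 higher and 0 lower, where 7.57% of all genes were higher and 2.92% lower, namely Nr2f2 (COUP-TFII, 0.82, adjusted p = 0.00450), Dmrt3 (0.78, 0.0196) and Msx2 (0.78, 0.0278). Msx2 was not above the olfactory gauge on all inputs, with means of 3.48 (4E-T), 3.01 (IgG) and 3.25 (input), so its difference is between readings near background. In 4E-T over input 2 were higher with group alone, Sp8 (0.95, adjusted p = 0.0399) and Dmrt3 (0.84, 0.0353), where 2.56% of all genes were higher. The set term gave 9 higher, where 10.4% of all genes were, and 0 were lower in either fit. These 9 were Barhl2, Dmrt3, Dmrta1, Ldb1, Nr2f2, Sp8, Zic1, Zic2 and Zic5. Sp8 is a zinc finger target of rostral FGF signalling, Nr2f2 a nuclear receptor of caudal and ventral territories, and Dmrt3 and Dmrta1 are doublesex-related factors of the caudomedial cortex. The list median was 0.20 in 4E-T over IgG and 0.46 in 4E-T over input with group alone (set term 0.26 and 0.51), to be read against the median genes given above. In IgG over input 0 of 17 were called in either fit, at a list median of 0.31 and 0.14. Of all genes, 1.45% were higher and 3.99% lower there with group alone, and 6.14% and 10.5% with the set term.

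**Figure D4:**
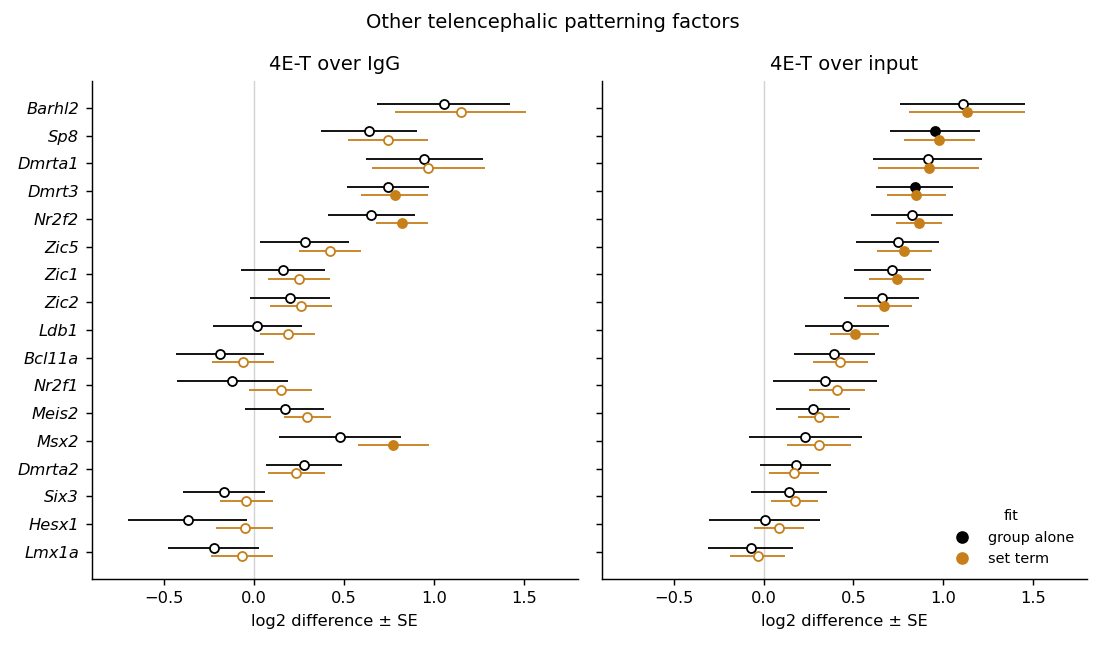
Log2 difference ± SE (horizontal axis) of 17 other telencephalic patterning factors (vertical axis, ordered by 4E-T over input) in 4E-T over IgG and 4E-T over input. Black is the fit with group alone and orange that with the set term, and filled points have an adjusted p under 0.05. In 4E-T over input 9 factors are called with the set term, from Ldb1 (0.51) to Barhl2 (1.13), and 3 are called in 4E-T over IgG. Among these 3, Msx2 is not above the olfactory gauge on all inputs.

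At the ends of that list in 4E-T over IgG stood Barhl2 (1.06 ± 0.37) and Dmrta1 (0.95 ± 0.32), and at the other end Hesx1 (-0.37 ± 0.33) and Lmx1a (-0.22 ± 0.25), none of them called there. Hesx1 and Lmx1a were among the 4 genes of the list not above the olfactory gauge on all inputs, with Msx2 and Six3. Of 26 genes from the same protein families as the members, 0 were called in 4E-T over IgG with group alone, and 3 (Gli2, Lhx1 and Tfap2a) were higher with the set term, a share near the 7.57% of all genes. Over input with 4E-T, Lhx1 (1.26, adjusted p = 0.0294) and Lhx9 (1.01, 0.0250) were higher with group alone, beside 2.56% of all genes. The set term added Gli2 and Tfap2a, beside 10.4% of all genes. In IgG over input 0 were called with group alone, beside 1.45% of all genes higher and 3.99% lower. Lhx9 was higher there with the set term (0.68, adjusted p = 0.0165), beside 6.14% of all genes. Only 7 of the 26 were above the gauge on all inputs (Otx1, Lhx6, Lhx9, Gli2, Nfib, Nfic and Nfix). Against input, most family relatives, Lhx1 and Tfap2a among them, thus give no usable comparison with the members. With IgG, Lhx1 averaged 5.05, above the gauges of the IgG arrays (4.57 to 4.81), and Tfap2a 4.22, under them. Otx2, above the gauge on 2 of 4 inputs and on 0 of 3 IgG arrays, is limited against input and against IgG.

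Markers of the labelled tissue and of cells beside it were counted in 4E-T over IgG with group alone, where 0.708% of all genes were higher and 0.64% lower. Of the 13 cortical precursor and neuron genes 0 were higher and Dcx, a microtubule protein gene of new neurons, was lower (-1.23 ± 0.26), while Hes5 (1.46 ± 0.38) and Sox2 (0.96 ± 0.23) were at the other end. Of 8 endothelial genes Kdr, which was not above the gauge on all inputs, was higher (1.35 ± 0.27), and 0 were called of 10 ventral telencephalic genes, 9 of meninges and mesenchyme, 3 of the erythroid lineage and 7 of microglia. With the set term, 5 cortical genes were higher (Hes5, Nes, Neurog2, Slc1a3 and Sox2) and Dcx lower, 2 endothelial genes were higher (Kdr and Emcn), and Gsx2, Foxc1 and Slc4a1 were higher in the ventral, mesenchymal and erythroid lists, beside 7.57% of all genes higher and 2.92% lower. Foxc1, like Kdr, was not above the gauge on all inputs. Emcn averaged 4.12 with IgG, under the gauges of the IgG arrays (4.57 to 4.81), so its differences that involve IgG are not exact values. The mean of the ventral list per array was 4.90 to 5.32 with 4E-T, 4.82 to 5.10 with IgG and 4.52 to 5.23 in input. The endothelial mean was 4.38 to 5.19 with 4E-T, 4.37 to 4.69 with IgG and 4.44 to 5.08 in input. In 4E-T over input with group alone, Hes5 (2.29), Sox2 (1.18), Nes and Neurog2 were higher and Vim lower among the cortical genes, Kdr was higher among the endothelial ones, and the microglial gene Tyrobp was lower (-1.64). In IgG over input with group alone Dcx was higher (0.98), and Vim, the endothelial gene Emcn (-1.37) and Tyrobp (-1.31) were lower. The set term called 4 of the 8 endothelial genes lower there (Cdh5, Cldn5, Emcn and Pecam1), beside 10.5% of all genes. Cldn5, like Emcn, averaged under the gauges of the IgG arrays (4.52 with IgG), so these 2 calls rest on IgG readings at background. The part of these cells in the members' differences was not tested.

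The genes whose pattern over the 10 arrays was most like that of a member were ranked by the root mean square difference of log2 values, after each gene was centred within the lower set and within the other 8 arrays. For Otx2 these were Plpp4 (0.0968), Mecom (0.142) and Ccdc112 (0.175), where the median over the 17239 genes ranked was 0.525. Plpp4 and Mecom averaged 4.35 and 4.24 with IgG, under the gauges of the IgG arrays (4.57 to 4.81), so they match Otx2 there at background. For Emx2 they were Zfp655 (0.0910), Wfs1 (0.0945) and Zfp24 (0.109), with a median of 0.455. For Emx1 they were Ess2 (0.106), Npepl1 (0.108) and Tor1a (0.116), with a median of 0.425. For Nfia they were Celsr1 (0.0927), Marf1 (0.0957) and St6gal2 (0.101), with a median of 0.450. Gli3 was matched by Hook1 (0.0841), Wdhd1 (0.0874) and Zfp768 (0.0901), and Tfap2c by Parm1 (0.160), Etv6 (0.176) and Drd4 (0.190), the last with group means of 4.0 to 4.25, within the range of the olfactory gauge. Pax6 was matched by Ctag2 (0.0718), Naf1 (0.0727) and Abcb11 (0.0779), of which Ctag2 and Abcb11 had group means of 2.83 to 3.37, below the olfactory gauge and so at background, and Lhx2 by Ttyh1 (0.0652), Ubqln2 (0.0693) and Zdhhc6 (0.0764). Pax6 and Lhx2 varied least over the arrays (0.202 and 0.179 around their means, against 0.491 for Otx2), so small differences from them are easily reached.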

How the data were processed

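Per the submitters' processing notes, the authors made the deposited log2 intensities with RMA in Affymetrix Expression Console. Versions and probe build are not given in the sources used here. Labels put the 10 arrays into groups of 3, 3 and 4. Of 41345 probe sets, 23521 carry 1 symbol (1814 several), and 23328 of these matched the reference gene table. For each gene the brightest single-symbol probe set over the 10 arrays was kept, which gave 22180 genes. No detection calls came with the table, so dim genes were kept. Precision is limited by how few arrays there are.

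Genes were fitted with limma 3.58.1 (lmFit, eBayes) in R 4.3.3, on simulated data first. Within-array differences of 4 gene pairs were tested by exact permutation (scipy 1.17.1), adjusted over 8 tests. The rule for names took the members, the pair partners, the 2 highest and 2 lowest genes of each list in 4E-T over IgG, and the 3 genes most like each member; list ends at background or without a call were mostly left unnamed. Other list genes were named where called, after their values were seen. Members, lists and alternatives were chosen with earlier results of these data known.

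Equal numbers were taken as pairs where deviations from group means correlated above 0.1 in every pair across genes. That held for 4E-T and input (0.62, 0.24 and 0.28, though 0.044 and 0.0085 among the 8 arrays outside the lower set), and not for IgG and input (-0.023, 0.080 and 0.32). Outside the lower set, unequal numbers passed as well. These were 4E-T 2 with inputs 3 and 4 (0.27 and 0.20) and 4E-T 3 with inputs 2 and 4 (0.19 and 0.23). The criterion therefore does not single out equal numbers. Only the numbers 2 and 3 occur in both precipitates.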

Additional observations from a re-analysis of the deposited data

How the results depend on the processing

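Calls depended on how the lower set was treated, while directions mostly did not. In 4E-T over IgG, 299 genes and 1 member were called with group alone, against 2326 and 4 with the set term, 1911 and 3 in the 8 other arrays, 2454 and 3 with the replicate block, 3054 and 5 with median centring, 2421 and 4 with quantile normalization of all arrays, and 685 and 3 with a trended, robust variance. Leaving out genes with a mean under 4 gave 562 genes. In 4E-T over input, 1361 genes and 1 member were called, against 4274 and 3, 3567 and 2, 4510 and 3, 2474 and 2, 3390 and 2, and 2046 and 2 in the same order, and 2 members without dim genes. In IgG over input, 1206 genes and 1 member were called, against 3688 and 2, 3471 and 2, 4120 and 2, 2792 and 2, 3546 and 2, and 1864 and 2, and 2 members without dim genes. Median centring moved the median of all genes in 4E-T over IgG to 0.25 and the split of calls to 2834 higher and 220 lower, against 157 and 142 as deposited. It moved every member there by the same amount, so that Emx1 (1.00), Emx2 (1.25), Gli3 (0.91), Otx2 (1.72) and Tfap2c (0.99) were called and Nfia (-0.46) was not. Quantile normalization split calls into 1891 and 530 and the set term 1678 and 648. In 4E-T over input, centring gave 1722 and 752 and quantile normalization 2044 and 1346, against 568 and 793, and in IgG over input 338 and 2454, and 1318 and 2228, against 322 and 884. Without 1 array, genes called ranged from 90 to 672 in 4E-T over IgG, 371 to 2005 in 4E-T over input and 444 to 1866 in IgG over input, and members from 0 to 2, 0 to 1 and 0 to 2. Of 24 member differences with group alone, 20 kept their direction under every alternative run. Exceptions, none of them called, were Pax6 and Gli3 in IgG over input with median centring (-0.14 and -0.098), and without 1 array Nfia in 4E-T over input (-0.11 to 0.20) and Emx2 in IgG over input (-0.13 to 0.081). With the set term, leaving out 1 array, an alternative added after seeing the data, turned 2 of 24, Emx2 (-0.20 to 0.015) and Gli3 (-0.033 to 0.33) in IgG over input. Gli3 minus Gli2 ran from -0.11 to 0.29 over IgG and -0.024 to 0.14 over input without 1 array. The cause of these changes was not tested. The block is reported beside the 4E-T over input calls it added to those of group alone. In the other comparisons it also called Emx2 and Nfia in 4E-T over IgG (0.88 and -0.62) and Emx1 in IgG over input (-0.79), as did the set term. Otx2 with IgG and on 2 of 4 inputs is limited by signal over background.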

Other observations

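A further probe set carries both the names Elp4 and Pax6 and was left out of the gene table because its signal cannot be assigned to either gene. It stood at 6.11, 6.0 and 6.03 with 4E-T, against 7.22, 6.19 and 6.36 with IgG and 6.70, 6.91, 6.69 and 6.92 in input. All 4E-T values lay below all others on this probe set, whereas those of the single-symbol Pax6 probe set were the highest 3. No test was run on it.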
